A study of Mus musculus with 4 samples.

Results

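The genes described here encode potassium, calcium and sodium channels and their auxiliary subunits in sorted mouse islet cells. They were chosen by gene symbol (potassium channel symbols of the Kcn series, calcium channel symbols beginning Cacna, Cacnb or Cacng, sodium channel symbols of the Scn series, and the sulfonylurea receptor genes Abcc8 and Abcc9) and by an FPKM of at least 1 in one library. FPKM is a fragment count corrected for transcript length and for the size of the library. Of 135 matching rows among 39170 in the gene table, 69 rows with 68 distinct symbols met the level. The other 66 stayed under 1 FPKM in every library, 7 of them listed at 0 throughout. The members nearest the threshold were Kcnf1 at a highest value of 1.05 FPKM and Kcnq1 at 1.08, and the rows just outside were Kcnc2 at 0.996 and Kcng2 at 0.983. Of the rows, 2 carry the symbol Kcnb2 at the same locus, so reads of that gene may be divided between them.

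The mice were males of the MIP-GFP C57BL/6 strain, 6 to 8 weeks old, which carry green fluorescent protein under an insulin promoter. Islet cells of every group were sorted as insulin-positive and by low (Glut2L) or high (Glut2H) Glut2, the glucose transporter encoded by Slc2a2; the study takes the Glut2L gate to hold more multipotent progenitors. The groups are Glut2L cells of STZ mice, Glut2L cells of control mice, Glut2H cells of STZ mice and Glut2H cells of control mice. STZ mice received 200 mg/kg of streptozotocin, a DNA-alkylating toxin that beta cells take up through Glut2, intraperitoneally in citrate buffer and were diabetic 4 days later, and control mice received vehicle. Each treatment had 3 mice and each group has 1 library; no source used here says whether mice were pooled. With 1 library per group there is no spread between replicates and no test was run: every difference below describes these 4 libraries.

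Ion channels turn a rise in blood glucose into insulin release. In a resting beta cell the ATP-sensitive potassium channel, built of the pore subunit encoded by Kcnj11 and the sulfonylurea receptor encoded by Abcc8, holds the membrane potential negative. ATP from glucose metabolism closes it, the membrane depolarises, voltage-gated calcium and sodium channels open, and calcium entry triggers exocytosis. Voltage-gated and calcium-activated potassium channels then repolarise the cell, and tandem-pore channels carry background potassium current.

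The sequences of 4 promoters are shown first, since these genes mark both sides of the difference between the gates. Each run is the 250 bases before the start of the gene in RefSeq's GRCm38.p6 annotation, on the gene's own strand. Kcnk16 (TALK-1, chr14:20269270-20269519, minus strand) and Scn9a (Nav1.7, chr2:66634963-66635212, minus strand) were higher in the libraries labelled Glut2L. In STZ mice Kcnk16 was just under 2-fold higher on the scale of FPKM plus 1 used below (log2 0.98). Kcnk13 (THIK-1, chr12:99964249-99964498, plus strand) and Kcnj10 (Kir4.1, chr1:172340960-172341209, plus strand) were lower in the libraries labelled Glut2L. These genes were chosen after their values were seen, among those with 1 RefSeq promoter that touches no annotated exon. Capitals mark the letters CATCTG or their reverse complement CAGATG, an E-box of the kind bound by NEUROD1 with its partners.
Kcnk16: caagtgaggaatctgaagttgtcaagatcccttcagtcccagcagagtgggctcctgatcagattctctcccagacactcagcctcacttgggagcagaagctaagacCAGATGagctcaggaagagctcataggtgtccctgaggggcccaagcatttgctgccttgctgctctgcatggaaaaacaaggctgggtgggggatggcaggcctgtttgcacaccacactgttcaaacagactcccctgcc
Scn9a: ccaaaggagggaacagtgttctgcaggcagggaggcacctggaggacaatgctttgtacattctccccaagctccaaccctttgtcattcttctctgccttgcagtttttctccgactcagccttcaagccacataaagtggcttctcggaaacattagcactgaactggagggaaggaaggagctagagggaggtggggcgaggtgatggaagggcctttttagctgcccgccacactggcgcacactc
Kcnk13: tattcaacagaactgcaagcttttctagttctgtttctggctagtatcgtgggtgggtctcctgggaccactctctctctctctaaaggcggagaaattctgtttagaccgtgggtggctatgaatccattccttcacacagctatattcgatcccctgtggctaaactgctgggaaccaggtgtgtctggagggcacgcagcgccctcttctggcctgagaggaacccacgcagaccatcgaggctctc
Kcnj10: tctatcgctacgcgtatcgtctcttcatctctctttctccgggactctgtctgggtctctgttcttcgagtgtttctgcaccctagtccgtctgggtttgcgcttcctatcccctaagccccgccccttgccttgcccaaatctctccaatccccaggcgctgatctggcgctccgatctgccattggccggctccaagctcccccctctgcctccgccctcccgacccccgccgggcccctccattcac
Of these 4 windows, the Kcnk16 window held the E-box letters. RefSeq promoters matched 47 of the 68 symbols, with 67 windows. The E-box letters stood in 17.9% of these windows and in 14.4% of all 32851 windows of the same length. The letters TGCTGA or TCAGCA, part of a site for MAF factors, stood in 17.9% and 16.1%, and GAGGAAG or CTTCCTC, an ETS site of the PU.1 type, in 11.9% and 10.6%. TATAAA or TTTATA stood in 2.99% of the channel gene windows, those of Cacna1d and Kcnj13, against 12.4% of all windows. TTCAGCACC, the left part of the RE1 element that the repressor REST binds, or its reverse complement GGTGCTGAA, which hold the MAF letters, stood in the window of Kcnh6 alone (1.49%), against 0.301% of all windows. Both strands were searched. Such matches describe letters in a window and are not binding sites.

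The transcript of the transporter used for sorting ran against the gate labels. Slc2a2 stood at 33.7 (STZ) and 41.0 FPKM (control) in the libraries labelled Glut2L, against 10.8 (STZ) and 8.74 FPKM (control) in those labelled Glut2H, so directions between gates are directions between libraries so labelled. Ins2, an insulin gene, stood at 175841 (STZ) and 294540.0 FPKM (control) against 52596 (STZ) and 57345 FPKM (control), and Ins1 at 20766 and 30842 FPKM against 8471 and 8955 FPKM in the same order. Summed over 10 myeloid and pan-leukocyte markers, the libraries labelled Glut2L held 124 (STZ) and 93.5 FPKM (control), against 2799 (STZ) and 2514 FPKM (control) in those labelled Glut2H. For 10 stromal and mural markers the sums were 21 and 44.8 FPKM against 698 and 805 FPKM in the same order, and for 7 endothelial markers 13.5 and 29.0 FPKM against 209 and 221 FPKM. No marker of these 3 lists was listed at 0 in any library, and in both pairs all 10 leukocyte markers lay 2-fold or more below the Glut2H-labelled library in the Glut2L-labelled one. The single predicted gene Gm20594 took 4.15% (STZ) and 3.86% (control) of the summed FPKM in the libraries labelled Glut2L, against 68.5% (STZ) and 61.0% (control) in those labelled Glut2H. The read number per library is unknown. In bulk RNA, fewer cells of a type and less RNA per cell cannot be told apart.

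Channel genes as a group stood higher in the libraries labelled Glut2L, with the ATP-sensitive channel and the sodium channel pore subunits furthest apart and several tandem-pore and inward rectifier genes the other way. Differences are given as log2 of FPKM plus 1, which understates the change of low genes, and a gene was counted as higher or lower at 2-fold on that scale. In STZ mice 59 of the 69 rows reached 1 FPKM in either library of the pair. Of these, 25 (42.4%) were higher in the Glut2L-labelled library, beside 22.9% of all rows measured and 19.6% of protein-coding rows, and 8 (13.6%) were lower, beside 17.8% and 16.5%. The 25 include both rows of Kcnb2. In control mice 62 rows were measured: 20 (32.3%) were higher, beside 19.7% of all rows and 17.2% of protein-coding rows, and 6 (9.68%) were lower, beside 18.5% and 16.6%. The median log2 difference was 0.70 in STZ mice and 0.64 in control mice, and over all rows 0.23 and 0.15.

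Low genes enter these counts mainly through the library where they are higher, so the counts were also taken over the channel genes with a mean of at least 1 FPKM over the 4 libraries. Then 20 of 50 (40.0%) were higher in STZ mice and 17 of 49 (34.7%) in control mice, beside 21.3% and 18.7% of all rows so filtered. Lower were 7 of 50 and 4 of 49, beside 17.0% and 17.4%. Among genes of at least 5 FPKM in either library of the pair, 13 of 28 were higher and 4 lower in STZ mice (21.8% and 17.4% of all such rows), and 14 of 24 were higher and 2 lower in control mice (20.6% and 18%). The beta cell markers differed more than the channel genes did: 10 markers (Ins1, Ins2, Slc2a2, Mafa, Pdx1, Nkx6-1, Ucn3, G6pc2, Slc30a8 and Iapp) had a median log2 difference of 1.34 in STZ mice and 1.82 in control mice. With that median set to 0, the counts of higher channel genes were 1 in STZ mice and 0 in control mice, and 18 and 36 were lower. The median of all rows was then -1.11 in STZ mice and -1.68 in control mice. Rows in general were thus mostly 2-fold or more lower at that setting too. The channel genes thus lay mostly above the median of all rows and below the median of the beta cell markers, and the part of cell makeup in this was not tested.

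**Figure D1:**
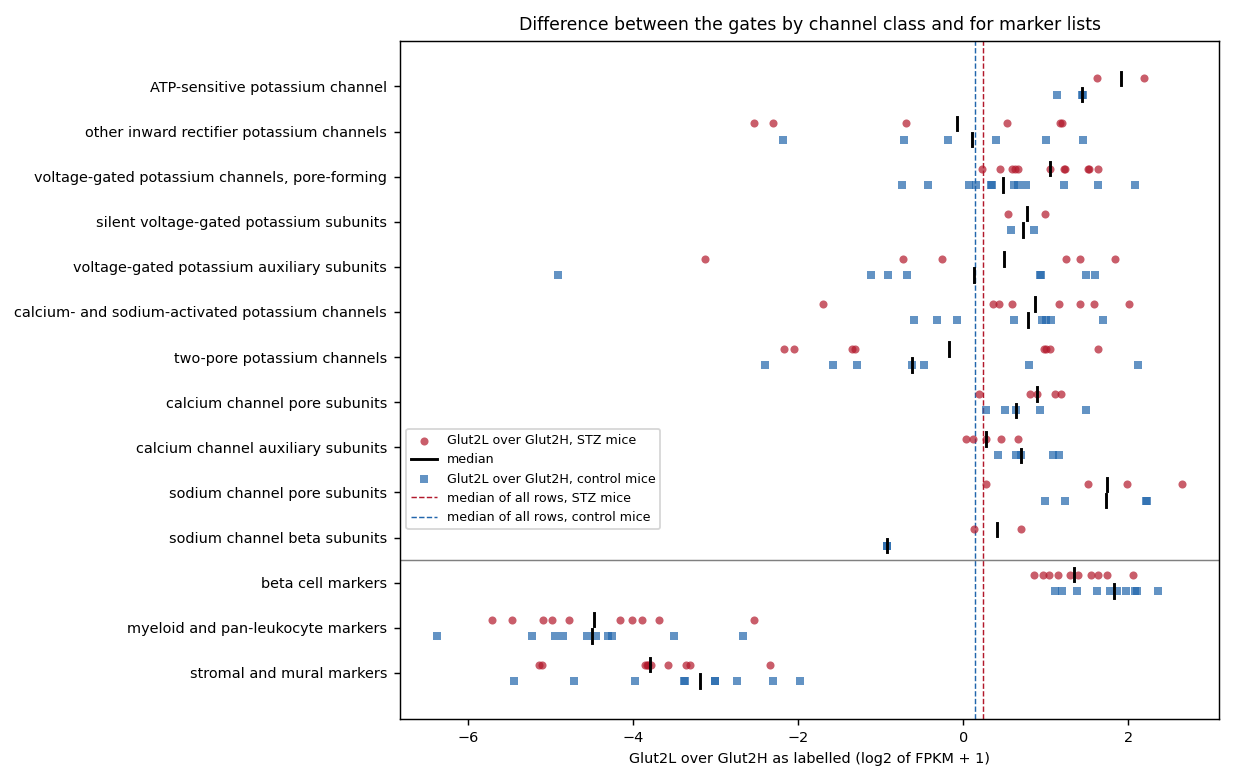
Difference between the libraries labelled Glut2L and Glut2H (log2 of FPKM + 1, horizontal axis) for each measured channel gene by class and for 3 marker lists, with STZ mice as circles and control mice as squares. Black bars are medians and dashed lines the medians of all rows (0.23 and 0.15); sodium channel pore subunits lie near the beta cell markers, and several tandem-pore channel genes lie left of 0.

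The 2 pairs of libraries share no library, and 52 channel genes were measured in both. Of these, 9 (17.3%) were higher in the Glut2L-labelled library of both pairs, beside 8.15% of all rows and 7.48% of protein-coding rows measured in both, among them Abcc8, Kcnj11, Kcnj6, Kcnab3, Kcnip1, Kcnma1, Scn4a and Scn9a. Another 5 (9.62%) were lower in both, beside 10.4% of all rows and 10.5% of protein-coding rows: Kcnab2, Kcnj10, Kcnk5, Kcnk6 and Kcnk13. The share lower in both pairs was near that of all rows. A single gene, Kcnj13, was higher in one pair and lower in the other (1.92%, beside 2.86% of all rows and 1.51% of protein-coding rows).

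**Figure D2:**
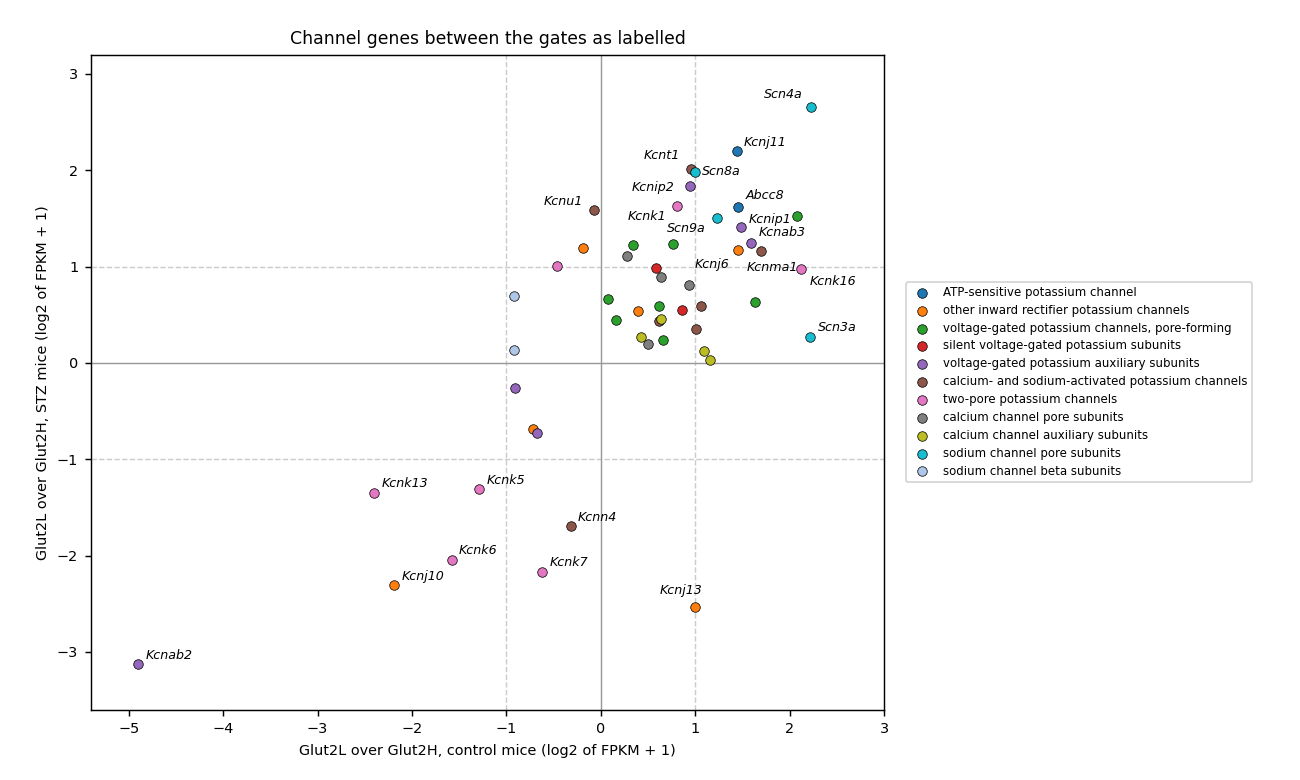
Log2 difference between the libraries labelled Glut2L and Glut2H for the 52 channel genes measured in both pairs, with control mice on the horizontal and STZ mice on the vertical axis and colours for channel classes. Dashed lines mark 2-fold; 9 genes lie beyond it at the upper right, 5 at the lower left, and Kcnj13 at the lower right.

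The ATP-sensitive potassium channel was the channel class with the highest summed level in both libraries labelled Glut2L. Abcc8 (ENSMUSG00000040136, GRCm38 chromosome 7, 46104523 to 46180033), the sulfonylurea receptor SUR1, stood at 87.0 (STZ) and 79.9 FPKM (control) in the libraries labelled Glut2L, against 27.6 (STZ) and 28.5 FPKM (control) in those labelled Glut2H. Kcnj11 (ENSMUSG00000096146, deposited locus on chromosome 7, 46098725 to 46099897), the Kir6.2 pore, stood at 29.2 (STZ) and 21.1 FPKM (control), against 5.59 (STZ) and 7.16 FPKM (control). Both libraries labelled Glut2L exceeded both labelled Glut2H for each gene, and the log2 differences were 1.62 for Abcc8 and 2.20 for Kcnj11 in STZ mice and 1.46 and 1.44 in control mice. The genes lie 3758 bases apart on the same strand. The level of the deposited FPKM intervals is not stated. For Kcnj11 they were 10.9 to 47.5 and 0.934 to 10.3 FPKM in the STZ libraries labelled Glut2L and Glut2H, without overlap. In the control libraries they were 7.59 to 34.6 and 1.75 to 12.5 FPKM, and overlapped. The intervals of Abcc8 overlapped in both pairs.

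Within a library, where scaling between libraries plays no part, the FPKM ratio of Kcnj11 to Abcc8 was 0.336 (STZ) and 0.265 (control) in the libraries labelled Glut2L, against 0.203 (STZ) and 0.251 (control) in those labelled Glut2H. The ratios lay closer together in control mice than in STZ mice. The deposited locus of Kcnj11 is a single block of 1173 bases, 17.2% of the gene's span in GENCODE release M21, so the ratio rests on that part of the gene. Kcnj8, the Kir6.1 pore found in vascular smooth muscle and pericytes, was listed at 0 (STZ) and stood at 1.54 FPKM (control) in the libraries labelled Glut2L, against 0.0662 (STZ) and 0.157 FPKM (control) in those labelled Glut2H. Abcc9, the SUR2 receptor that pairs with Kir6.1, reached at most 0.432 FPKM.

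**Figure D3:**
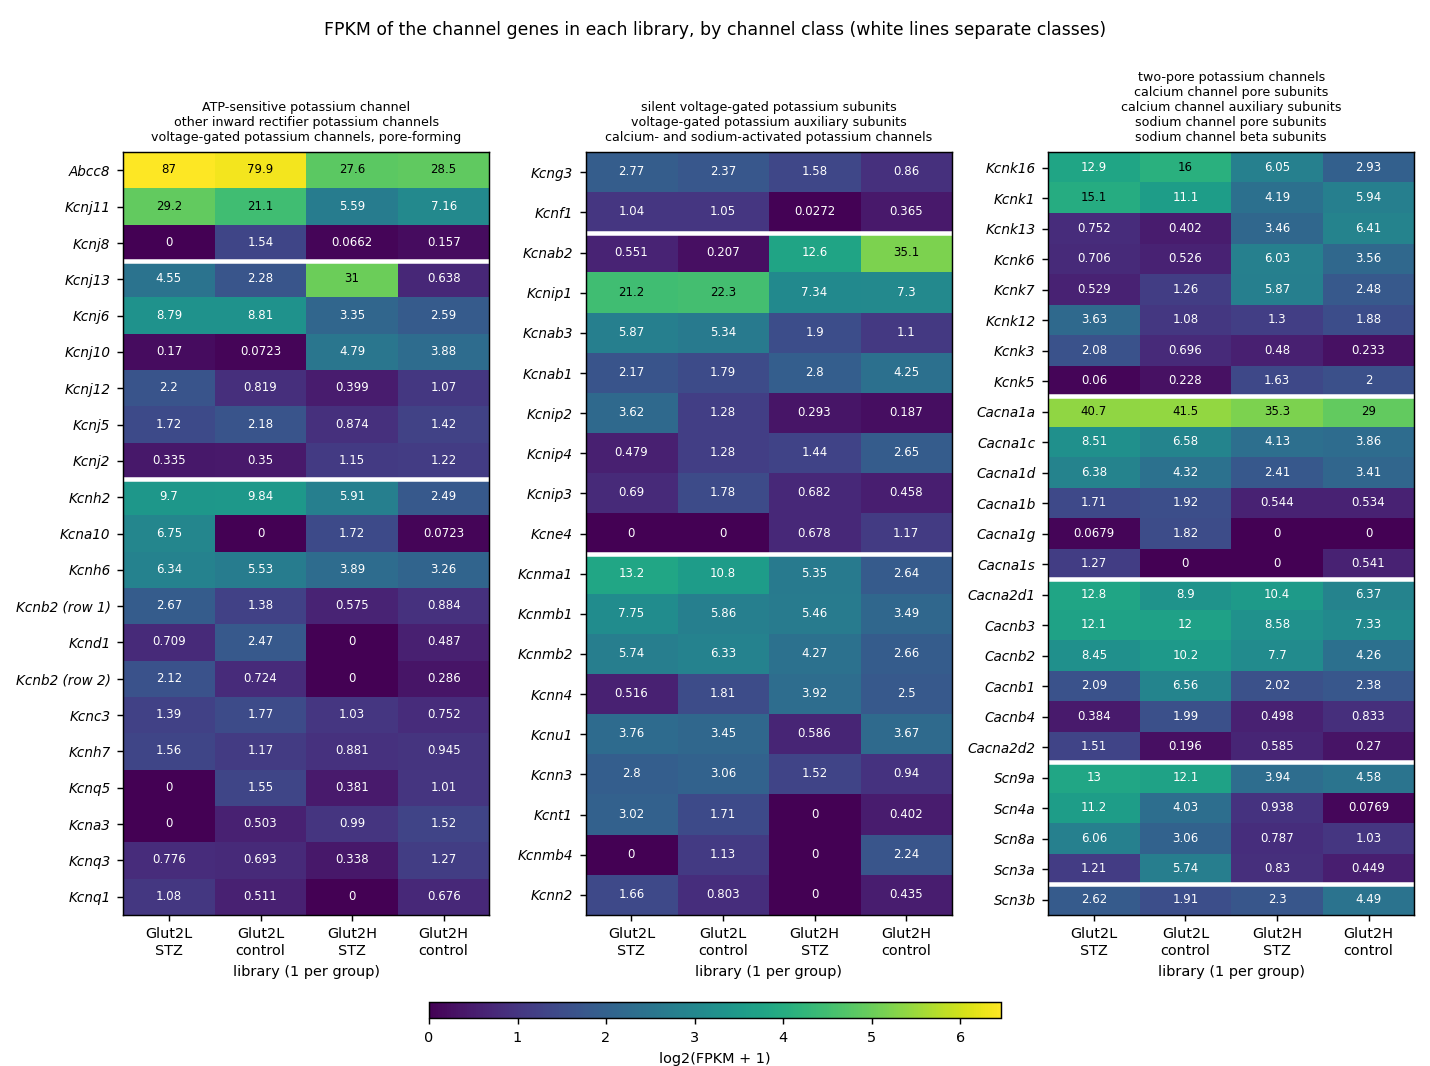
FPKM of the channel rows reported by name in each of the 4 libraries, with the value printed in each cell and colour for log2 of FPKM + 1; rows are grouped by channel class. Abcc8, Kcnj11, Kcnip1 and Scn9a are brighter in both columns labelled Glut2L, Kcnab2 in both columns labelled Glut2H, and Cacna1a is bright in all 4.

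The other inward rectifiers did not move together. Kcnj6, the GIRK2 subunit that G protein-coupled receptors open, stood at 8.79 (STZ) and 8.81 FPKM (control) in the libraries labelled Glut2L, against 3.35 (STZ) and 2.59 FPKM (control) in those labelled Glut2H. Its partner Kcnj5 (GIRK4) lay between 0.874 and 2.18 FPKM in all libraries, with log2 differences of 0.53 (STZ mice) and 0.40 (control mice). Kcnj10, the Kir4.1 channel best known from glia and epithelia, was on the other side, at 0.170 (STZ) and 0.0723 FPKM (control) in the libraries labelled Glut2L, against 4.79 (STZ) and 3.88 FPKM (control) in those labelled Glut2H. Kcnj2, at most 1.22 FPKM, was also below 0 in both pairs, at -0.69 and -0.72 on the log2 scale.

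Kcnj13 (Kir7.1, deposited locus on chromosome 1, 87326998 to 87450796), a channel of transporting epithelia, was high in a single library. It stood at 4.55 (STZ) and 2.28 FPKM (control) in the libraries labelled Glut2L and at 31.0 (STZ) and 0.638 FPKM (control) in those labelled Glut2H. The log2 difference between the gates was therefore -2.53 in STZ mice and 1.0 in control mice. The deposited intervals of Kcnj13 began at 0 in every library and reached 158 FPKM in the STZ library labelled Glut2H. The gene lies within Gigyf2 on the opposite strand, and the deposited locus of Kcnj13 spans both. Gigyf2, a regulator of translation, stood at 62.1 (STZ) and 65.3 FPKM (control) against 67.3 (STZ) and 45.6 FPKM (control). The kit marks strand, but no source used here gives the counting setting, so reads of the 2 genes may not be separated.

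Voltage-gated potassium channels include the delayed rectifiers that repolarise the beta cell. Kcnh2, the ERG1 channel, stood at 9.70 (STZ) and 9.84 FPKM (control) in the libraries labelled Glut2L, against 5.91 (STZ) and 2.49 FPKM (control) in those labelled Glut2H. Kcnh6, a related ERG channel expressed in islets, differed less, at 6.34 (STZ) and 5.53 FPKM (control), against 3.89 (STZ) and 3.26 FPKM (control). All 11 pore-forming rows measured in STZ mice had a log2 difference above 0 (median 1.06, 6 at least 2-fold), and in control mice 10 of 12 did (median 0.48, 3 at least 2-fold). In STZ mice both rows of Kcnb2, at the same locus, are among the 11 and the 6 (log2 1.22 and 1.64). Over all rows 9292 of 15839 lay above 0 in STZ mice and 9080 of 16234 in control mice, and 22.9% and 19.7% were at least 2-fold higher. The 2 below 0 in control mice were Kcnq3 at -0.42 and Kcna3 at -0.74. Kcna3 is the Kv1.3 channel of lymphocytes and macrophages, and stood at 0 (STZ, listed) and 0.503 FPKM (control), against 0.990 (STZ) and 1.52 FPKM (control).

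The auxiliary subunits of these channels held both the strongest contrast between the gates and one of the steadiest. Kcnip1, a calcium-binding partner of Kv4 channels (deposited locus on chromosome 11, 33629339 to 34098554), stood at 21.2 (STZ) and 22.3 FPKM (control) in the libraries labelled Glut2L, against 7.34 (STZ) and 7.30 FPKM (control) in those labelled Glut2H. Its log2 differences of 1.41 and 1.49 were close in the 2 pairs, but its deposited intervals overlapped in both. In GENCODE it overlaps 4930469K13Rik on the same strand and Kcnmb1 on the other. The Kv4 pore genes that Kcnip1 pairs with were low: Kcnd1 was at most 2.47 FPKM, and Kcnd2 and Kcnd3 did not reach 1 FPKM. Kcnab3, a beta subunit of Kv1 channels, stood at 5.87 (STZ) and 5.34 FPKM (control), against 1.9 (STZ) and 1.10 FPKM (control).

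Kcnab2, the Kv beta-2 subunit with an aldo-keto reductase fold (deposited locus on chromosome 4, 152390742 to 152563183), ran the other way. It stood at 0.551 (STZ) and 0.207 FPKM (control) in the libraries labelled Glut2L, against 12.6 (STZ) and 35.1 FPKM (control) in those labelled Glut2H. The log2 differences of -3.13 and -4.90 were the lowest of the channel genes in each pair. They lay beside medians of -4.46 in STZ mice and -4.50 in control mice for the 10 leukocyte markers. The medians were -3.80 and -3.19 for the stromal and mural markers, and -3.53 and -2.96 for the endothelial markers. The relation to RNA of such cells was not tested. The Kcnab2 locus also overlaps Nphp4 on the other strand, which stood at 0.936 (STZ) and 4.16 FPKM (control) against 3.31 (STZ) and 0.428 FPKM (control). Kcne4, a single-pass subunit that inhibits Kv channels, was listed at 0 in both libraries labelled Glut2L and stood at 0.678 (STZ) and 1.17 FPKM (control) in those labelled Glut2H.

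Calcium-activated channels couple calcium entry to repolarisation. Kcnma1, the large-conductance BK pore, stood at 13.2 (STZ) and 10.8 FPKM (control) in the libraries labelled Glut2L, against 5.35 (STZ) and 2.64 FPKM (control) in those labelled Glut2H. Its beta subunit genes differed less: Kcnmb2, which inactivates the channel, stood at 5.74 (STZ) and 6.33 FPKM (control), against 4.27 (STZ) and 2.66 FPKM (control). The FPKM ratio of Kcnmb2 to Kcnma1 was accordingly 0.436 (STZ) and 0.586 (control), against 0.797 (STZ) and 1.01 (control).

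Kcnmb1, the beta-1 subunit, stood at 7.75 (STZ) and 5.86 FPKM (control) in the libraries labelled Glut2L, against 5.46 (STZ) and 3.49 FPKM (control) in those labelled Glut2H. It overlaps Kcnip1 on the opposite strand and shares its deposited locus. Among small-conductance channels, Kcnn3 (SK3) lay between 0.940 and 3.06 FPKM. Kcnn4, the intermediate-conductance channel of lymphocytes, macrophages and epithelia, stood at 0.516 (STZ) and 1.81 FPKM (control), against 3.92 (STZ) and 2.5 FPKM (control), and was the one gene of the class counted as lower between the gates (log2 -1.70, STZ mice). Kcnt1, a sodium-activated channel, was listed at 0 in the STZ library labelled Glut2H and stood at 3.02 FPKM in its Glut2L counterpart.

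Tandem-pore channels (the Kcnk series) included genes higher and genes lower in the libraries labelled Glut2L. Kcnk16 (TALK-1, a channel largely limited to islets; chromosome 14, 20262756 to 20269162), whose promoter is shown above, stood at 12.9 (STZ) and 16.0 FPKM (control) in the libraries labelled Glut2L, against 6.05 (STZ) and 2.93 FPKM (control) in those labelled Glut2H. Kcnk1 (TWIK-1) stood at 15.1 (STZ) and 11.1 FPKM (control), against 4.19 (STZ) and 5.94 FPKM (control). Together they supplied the highest values of the class in both libraries labelled Glut2L.

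The highest gene held 42.3% (Kcnk1, STZ) and 51.2% (Kcnk16, control) of the class sum in the libraries labelled Glut2L, against 20.9% (Kcnk16, STZ) and 25.2% (Kcnk13, control) in those labelled Glut2H. Kcnk13 (THIK-1, known from microglia and other macrophages) stood at 0.752 (STZ) and 0.402 FPKM (control) in the libraries labelled Glut2L, against 3.46 (STZ) and 6.41 FPKM (control) in those labelled Glut2H. Kcnk6 (TWIK-2, active in macrophages) stood at 0.706 (STZ) and 0.526 FPKM (control), against 6.03 (STZ) and 3.56 FPKM (control). Kcnk7 stood at 0.529 (STZ) and 1.26 FPKM (control), against 5.87 (STZ) and 2.48 FPKM (control). These values lie beside the leukocyte, stromal and mural, and endothelial marker sums given above. The part of RNA of such cells in them was not tested.

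Kcnk5 (TASK-2) ended 79566 bases from Kcnk16 on the same strand of chromosome 14, yet the neighbours differed in opposite directions. Kcnk5 stood at 0.060 (STZ) and 0.228 FPKM (control) in the libraries labelled Glut2L, against 1.63 (STZ) and 2.0 FPKM (control) in those labelled Glut2H. Over the class, 3 of 8 measured were higher by 2-fold or more and 4 lower in STZ mice (median -0.17), and 1 of 7 higher and 3 lower in control mice (median -0.62). Of all rows, 22.9% were higher and 17.8% lower in STZ mice, and 19.7% and 18.5% in control mice. This was the class with the lowest median in STZ mice.

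**Figure D4:**
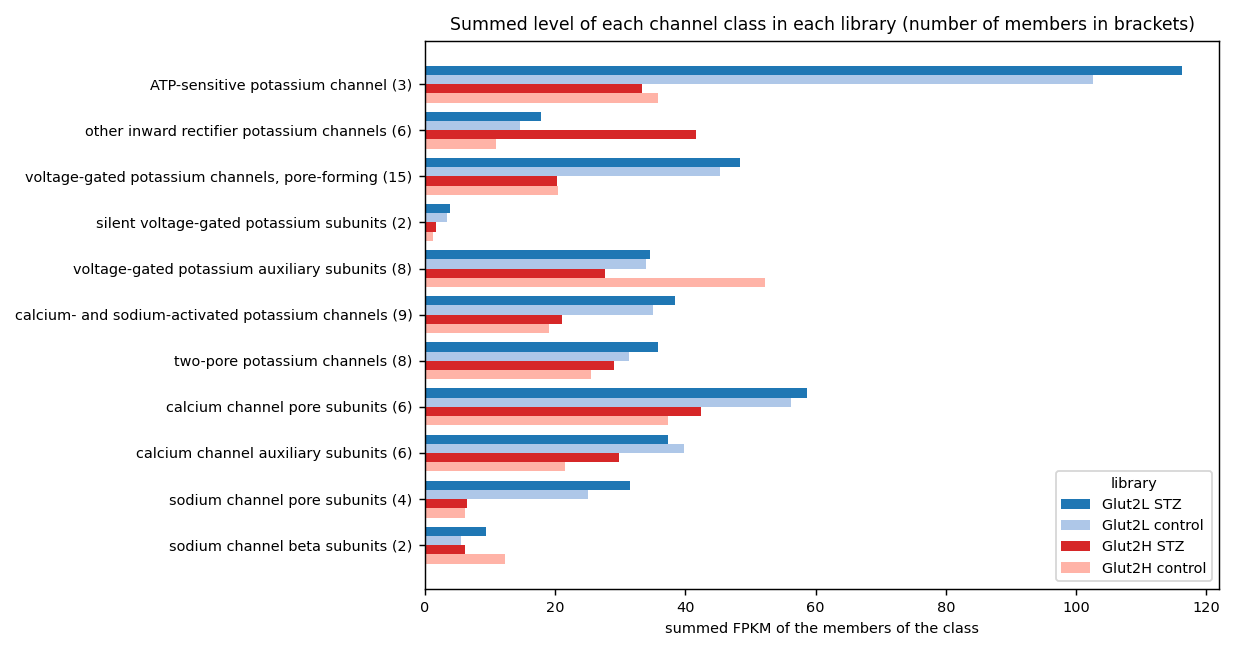
Summed FPKM of the members of each channel class (horizontal axis from 0) in the 4 libraries, with the number of members in brackets. The ATP-sensitive channel reaches 116 (STZ) and 103 (control) in the libraries labelled Glut2L, against 33.3 (STZ) and 35.8 (control) in those labelled Glut2H, while calcium channel pore subunits differ less.

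Among calcium channel pore subunits one gene dominated in every library. Cacna1a (Cav2.1, the P/Q-type channel; chromosome 8, 84388440 to 84640246) stood at 40.7 (STZ) and 41.5 FPKM (control) in the libraries labelled Glut2L, against 35.3 (STZ) and 29.0 FPKM (control) in those labelled Glut2H. It made up 69.4% (STZ) and 73.9% (control) of the summed FPKM of the 6 pore subunits, against 83.3% (STZ) and 77.7% (control). Its log2 differences of 0.20 and 0.50 were close to or above the medians of all rows, 0.23 and 0.15.

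The L-type channels carry most of the calcium current that triggers insulin release in rodent beta cells. Cacna1c (Cav1.2) stood at 8.51 (STZ) and 6.58 FPKM (control) in the libraries labelled Glut2L, against 4.13 (STZ) and 3.86 FPKM (control) in those labelled Glut2H. Cacna1d (Cav1.3) stood at 6.38 (STZ) and 4.32 FPKM (control), against 2.41 (STZ) and 3.41 FPKM (control). The FPKM ratio of Cacna1d to Cacna1c was 0.750 (STZ) and 0.657 (control), against 0.583 (STZ) and 0.883 (control), so Cacna1c was above Cacna1d in all 4 libraries. The deposited locus of Cacna1c covers 30.9% of its GENCODE span. Over the whole span Cacna1c overlaps Dcp1b on the other strand, and whether the deposited part does was not examined. Cacna1d overlaps Chdh and Dcp1a on the other strand. Cacna1b (N-type) was at most 1.92 FPKM, the T-type gene Cacna1g was at 1.82 FPKM in the control library labelled Glut2L and at or below 0.0679 elsewhere, and the R-type gene Cacna1e did not reach 1 FPKM.

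Calcium channel auxiliary subunits, which set surface number and gating, lay close between the gates in STZ mice, where 0 of 5 measured genes differed 2-fold, beside 22.9% of all rows higher and 17.8% lower. Cacna2d1, the alpha2delta-1 subunit that gabapentin binds, stood at 12.8 (STZ) and 8.90 FPKM (control) in the libraries labelled Glut2L, against 10.4 (STZ) and 6.37 FPKM (control) in those labelled Glut2H. Cacnb3 stood at 12.1 (STZ) and 12.0 FPKM (control), against 8.58 (STZ) and 7.33 FPKM (control). Cacnb2 stood at 8.45 (STZ) and 10.2 FPKM (control), against 7.70 (STZ) and 4.26 FPKM (control), so that its log2 difference was 0.12 in STZ mice and 1.09 in control mice. No gamma subunit gene (Cacng) reached 1 FPKM.

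Sodium channel pore subunits had the highest class median of the classes with at least 3 measured genes, 1.74 in STZ mice and 1.73 in control mice over 4 genes. Scn9a (Nav1.7, the main sodium channel of mouse beta cells; chromosome 2, 66440880 to 66634952) stood at 13.0 (STZ) and 12.1 FPKM (control) in the libraries labelled Glut2L, against 3.94 (STZ) and 4.58 FPKM (control) in those labelled Glut2H. It was the highest of the class in all 4 libraries, with 41.4% (STZ) and 48.6% (control) of the class sum against 60.7% (STZ) and 74.6% (control). Scn3a (Nav1.3), which lies 912452 bases away on the same strand and carries sodium current in alpha cells, stood at 1.21 (STZ) and 5.74 FPKM (control), against 0.830 (STZ) and 0.449 FPKM (control). Scn8a (Nav1.6) stood at 6.06 (STZ) and 3.06 FPKM (control), against 0.787 (STZ) and 1.03 FPKM (control).

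Scn4a, the skeletal muscle channel Nav1.4, stood at 11.2 (STZ) and 4.03 FPKM (control) in the libraries labelled Glut2L, against 0.938 (STZ) and 0.0769 FPKM (control) in those labelled Glut2H. The deposited locus of this row runs from 106349455 to 106353288 on chromosome 11, 11% of the gene's GENCODE span, and so says nothing of most of its exons. Scn3b, a beta subunit that tunes sodium channel gating, stood at 2.62 (STZ) and 1.91 FPKM (control), against 2.30 (STZ) and 4.49 FPKM (control). Its log2 difference was 0.13 in STZ mice and -0.92 in control mice.

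The effect of STZ was smaller than the difference between the gates. In the libraries labelled Glut2L, 6 of 60 measured channel genes (10%) were higher in the STZ library, beside 10.2% of all rows and 6.82% of protein-coding rows, and 8 (13.3%) were lower, beside 11.1% and 7.62%. In those labelled Glut2H, 2 of 49 (4.08%) were higher, beside 9.62% and 7.22%, and 4 (8.16%) were lower, beside 13.8% and 9.96%. In the libraries labelled Glut2L the shares were near those of all rows and above those of protein-coding rows. The median log2 difference was 0.12 in the libraries labelled Glut2L and -0.04 in those labelled Glut2H, with all rows at 0.00 and -0.07.

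Among the channel genes described above, Abcc8 differed by 0.12 on the log2 scale in the libraries labelled Glut2L and by -0.04 in those labelled Glut2H, Kcnj11 by 0.45 and -0.31, Cacna1a by -0.03 and 0.28, Kcnip1 by -0.07 and 0.01, and Scn9a by 0.10 and -0.18. Larger differences included Scn3a at -1.61, Cacnb1 at -1.29, Scn4a at 1.28 and Scn8a at 0.80 in the libraries labelled Glut2L. In those labelled Glut2H they included Kcnj13 at 4.29, Kcnab2 at -1.41, Kcnh2 at 0.99 and Kcnma1 at 0.80. The 10 beta cell markers had a median of -0.18 in the libraries labelled Glut2L and 0.13 in those labelled Glut2H. Kcnk16, at -0.29 and 0.85, had opposite signs in the gates without reaching 2-fold in either. A difference between the gates in their STZ effects was not tested, and of 40 channel genes measured in both, 0 passed 2-fold in opposite directions, beside 3.46% of all rows and 2.10% of protein-coding rows. Higher in both was 1 gene (2.5%), Kcna10, beside 1.31% and 0.866%, and lower in both was 1, Kcnmb4, beside 2.07% and 1.24%.

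The genes that did reach 2-fold after STZ were mostly low in level, and the mean filter described above left 4 higher and 2 lower of 46 in the libraries labelled Glut2L (8.74% and 9.36% of all such rows), and 2 higher and 3 lower of 42 in those labelled Glut2H (8.50% and 11.9%). At 5 FPKM or more in either library, 2 were higher and 2 lower of 26 (8.45% and 9.13%), and 1 higher and 1 lower of 18 (8.92% and 10.9%). Kcna10 (Kv1.8, a cyclic nucleotide-sensitive channel known from inner ear hair cells) was higher in both gates. It stood at 6.75 FPKM in the STZ library labelled Glut2L and was listed at 0 in the control library. In the libraries labelled Glut2H it stood at 1.72 (STZ) against 0.0723 FPKM (control). Its deposited intervals began at 0 in every library and reached 22.0 and 5.51 FPKM in the STZ libraries labelled Glut2L and Glut2H. Scn4a, at 11.2 (STZ) and 4.03 FPKM (control), was also higher in the libraries labelled Glut2L, with the limit on its locus given above. The remaining higher genes there were Kcnip2 at 3.62 (STZ) and 1.28 FPKM (control), Kcnk12 at 3.63 (STZ) and 1.08 FPKM (control), and Cacna2d2 and Cacna1s, each at most 1.51 FPKM.

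Lower after STZ in the libraries labelled Glut2L were 2 genes above 5 FPKM. Cacnb1, a beta subunit of calcium channels, stood at 2.09 (STZ) against 6.56 FPKM (control), and Scn3a at 1.21 (STZ) against 5.74 FPKM (control). The other 6 (Kcnj8, Kcnd1, Kcnq5, Kcnmb4, Cacna1g and Cacnb4) stood at or below 2.47 FPKM. Beside these, Gcg, the glucagon gene of alpha cells, stood at 9893 (STZ) against 4170.0 FPKM (control), and the 5 acinar markers summed to 268 (STZ) against 1860 FPKM (control).

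In the libraries labelled Glut2H the genes at least 2-fold higher after STZ were Kcnj13, at 31.0 (STZ) against 0.638 FPKM (control), and Kcna10. Kcnab2 was lower, at 12.6 (STZ) against 35.1 FPKM (control). The same libraries differed in lymphocyte markers, whose 4 genes summed to 1.97 (STZ) against 12.8 FPKM (control), while the 10 myeloid and pan-leukocyte markers summed to 2799 (STZ) against 2514 FPKM (control). Kcnu1, the sperm channel SLO3, stood at 0.586 (STZ) against 3.67 FPKM (control), and Kcnmb4, the neuronal BK subunit, was listed at 0 (STZ) against 2.24 FPKM (control).

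**Figure D5:**
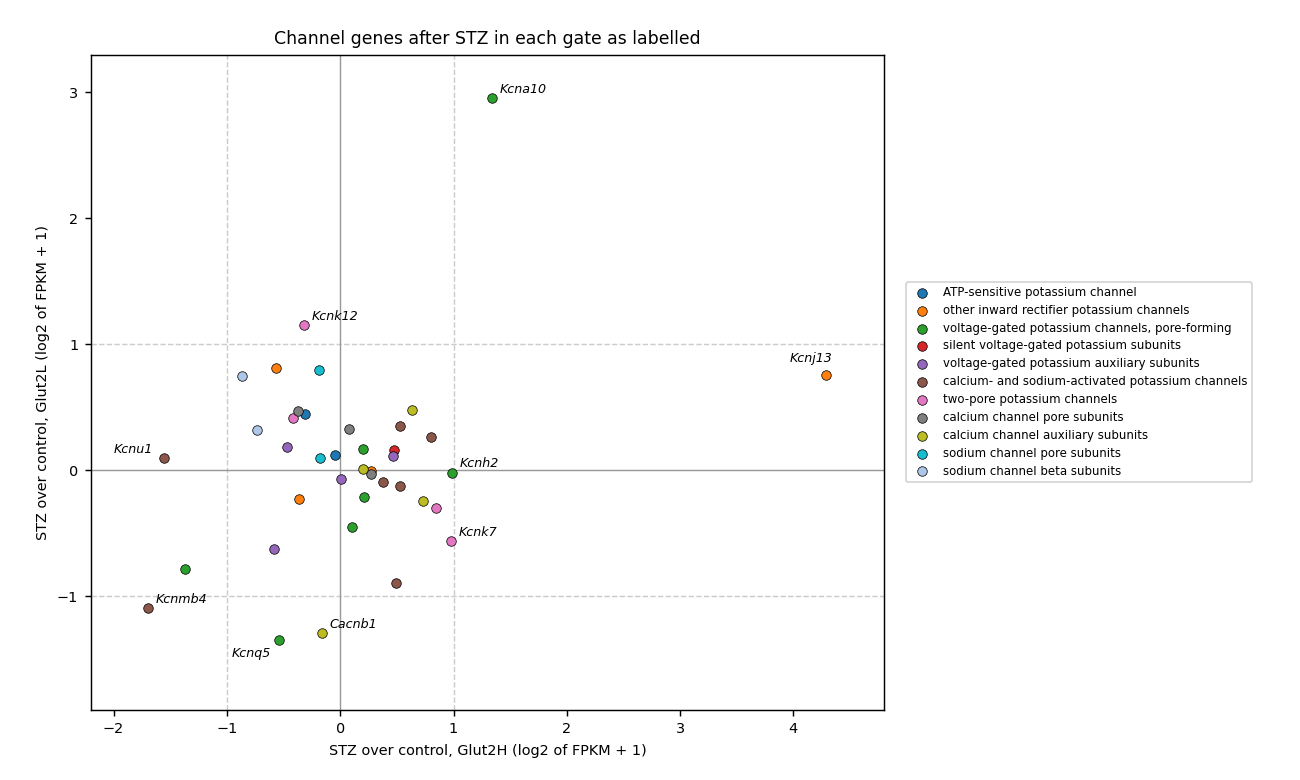
Log2 difference between STZ and control libraries for the 40 channel genes measured in both gates, with the libraries labelled Glut2H on the horizontal and those labelled Glut2L on the vertical axis. Most points lie within the dashed 2-fold lines. Kcnj13 stands at 4.29 on the horizontal and Kcna10 at 2.95 on the vertical axis, both with deposited intervals that begin at 0 in every library.

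Other ion transport genes were a list of 55, of which 54 were in the table. In STZ mice 7 of 47 measured (14.9%) were higher by 2-fold or more in the Glut2L-labelled library and 9 (19.1%) lower, beside 22.9% and 17.8% of all rows (median 0.30). In control mice 12 of 49 (24.5%) were higher and 9 (18.4%) lower, beside 19.7% and 18.5% of all rows (median 0.11). The pumps included the highest levels: Atp2a3, the SERCA3 calcium pump, stood at 72.9 (STZ) and 84.6 FPKM (control) in the libraries labelled Glut2L, against 16.6 (STZ) and 21 FPKM (control) in those labelled Glut2H. Atp1b1, a beta subunit of the sodium pump, stood at 71.8 (STZ) and 77.6 FPKM (control), against 17.0 (STZ) and 20.3 FPKM (control). Piezo1, a mechanically gated channel, was on the other side, at 8.63 (STZ) and 5.80 FPKM (control), against 24.3 (STZ) and 34.9 FPKM (control). Trpm5, a calcium-activated cation channel of beta cells, stood at 10.6 (STZ) and 6.08 FPKM (control), against 4.71 (STZ) and 4.06 FPKM (control).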

How the data were processed

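Total RNA of 4 sorted populations was sequenced, 1 library each. Per the labels' protocols, libraries were made with a stranded total RNA kit after removal of ribosomal RNA. Per the submitters' processing notes, TopHat2, SAMtools and Cuffdiff were used with GRCm38 (mm10); no source used here states versions, annotation release, strand setting or library normalization. Values were deposited by the authors as FPKM with interval bounds and a status, per the file headers (437 rows were not OK somewhere; all 69 channel rows were). The tables of single samples held the same FPKM (0 of 156680 values differed). Members and lists were chosen with earlier results of these data known.

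Log2 ratios of FPKM plus 1 were computed in Python 3.11.15 with pandas 2.3.3 for rows with at least 1 FPKM in either library of a pair, without a test. Genes were named at 5 FPKM or more in one library, with further lower ones by direction or after their values were seen. Gene positions are the deposited loci on GRCm38; strands, spans and overlaps are from GENCODE release M21, which held 68 of the 69 rows, and promoters from RefSeq (GRCm38.p6). Windows overlapping an annotated exon, and genes with several promoters, were not printed. Depth is unknown, so no counting interval is given; the deposited intervals had a median half-width between 89.7% and 96.8% of the FPKM of the channel genes at 1 FPKM or more. The procedure was tested on simulated data. The changes set there were larger than 2-fold, with little noise, in genes of higher FPKM than most channel genes. The simulation therefore says nothing of changes in genes of a few FPKM. A few channel genes count in the totals and are not reported here by name.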

Additional observations from a re-analysis of the deposited data

How the results depend on the processing

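No paired analysis was possible because replicate numbers pair nothing with 1 library per group, and no replicate could be left out; an additive fit of gate and treatment, with 1 residual degree of freedom, was not run. Counts of channel genes at least 2-fold higher and lower were 25 and 8 (gates, STZ mice), 20 and 6 (gates, control mice), 6 and 8 (STZ, Glut2L) and 2 and 4 (STZ, Glut2H), and 0 stood in opposite directions after STZ. They were the same with the single-sample tables and with no filter. Both outcomes were fixed in advance. The single-sample tables hold the same values, and a row under 1 FPKM in both libraries cannot reach 2-fold on FPKM plus 1. Counts that moved by over 1.5 times follow, with the gates in STZ mice and in control mice first, then STZ in Glut2L and in Glut2H. A pseudocount of 5 gave 6 and 2, 6 and 2, 1 and 0, 1 and 1. A pseudocount of 0.1 gave 11 lower (gates, control mice), 10 and 13, 5 and 8, and 2 in opposite directions. A filter of 5 FPKM gave 13 and 4, 2 lower, 2 and 2, 1 and 1. At 4-fold the counts were 3 and 5, 4 and 3, 1 and 0, 1 and 0. With non-overlapping deposited intervals they were 2 and 2, 1 and 2, 0 and 1, 0 and 0. Setting the median of all ratios to 0 gave 16 higher and 8 lower (gates, STZ mice), 15 and 9 (gates, control mice) and 4 higher (STZ, Glut2H). Rescaling to an equal sum over all rows, Gm20594 included, gave 44 and 6 (gates, STZ mice), 36 and 4 (gates, control mice) and 10 higher after STZ in Glut2L, and moved the median of all rows to 1.19 and 0.85. With the beta cell marker median set to 0 the counts were 1 and 18, 0 and 36, and 5 lower after STZ in Glut2L. The median of all rows for the gates was then -1.11 in STZ mice and -1.68 in control mice. Chosen after seeing the data, a mean of at least 1 FPKM left 2 lower (STZ, Glut2L), and leaving out genes that overlap another protein-coding gene left 1 higher (STZ, Glut2H). Apart from the filters on FPKM, whose shares are given above, no share of all rows stands beside these alternative counts. They therefore do not set channel genes apart from rows in general.

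Of log2 values past 1, those that changed sign all did so with the beta cell marker median set to 0. For the gates in control mice the log2 values became -0.37 for Abcc8, -0.39 for Kcnj11 and for the median of its class, -0.69 for Kcnj8, -0.37 for Kcnj6, -0.82 for Kcnj13, -0.19 for Kcnh2, -0.23 for Kcnab3, -0.34 for Kcnip1, -0.13 for Kcnma1, -0.82 for Kcnmb2, -0.66 for Cacnb1, -0.73 for Cacnb2, -0.59 for Scn9a and -0.098 for the sodium pore median. In STZ mice they became -0.17 for Kcnj6, -0.10 for Kcnab3, -0.18 for Kcnma1, -0.23 for Cacna1d and -0.29 for the pore-forming voltage-gated potassium median. This follows from subtracting 1.82 and 1.34. Unknown depth and wide intervals limit genes of a few FPKM most.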
